A study of Homo sapiens with 6 samples.

Results

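Collagens are the triple-helical proteins that give the extracellular matrix its framework, and the 43 rows of the expression table whose gene symbol is that of a collagen chain are described here, out of 24480 gene symbols measured. They were taken by symbol alone, as COL followed by a number, the letter A and a number, and the rule uses no measured value. Of the 43, 11 encode fibrillar chains, 9 encode chains of basement membranes and the zones next to them, and 23 belong to other families. RNA-seq libraries were made from LN229 cells, an established human glioblastoma line, transduced with LACTB (3 libraries) or with vector (3 libraries). LACTB is a mitochondrial protein related to bacterial beta-lactamases. Both groups carry a vector, and the labels used here give neither the promoter, nor the time after transduction, nor whether the cells are a clone or a pool, nor whether replicate libraries stem from different cultures. The p-values below therefore speak only to library-to-library spread, which could be technical. The study asked what LACTB does in glioma cells.

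A collagen molecule is built from 3 chains, each a long run of glycine-X-Y triplets. Fibrillar collagens are secreted as procollagens and pack into fibrils once their end propeptides are cut off. Type IV chains stay uncut and form the sheet of the basement membrane, FACIT collagens coat fibrils, types VIII and X form hexagonal networks, type VI forms beaded filaments and a few collagens span the plasma membrane. In the brain, type IV collagen lines the vessels and fibrillar collagens are sparse in the parenchyma, while glioblastomas and glioma lines often make both.

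The value of each gene is the authors' normalized read count. LACTB itself had 4268, 4078 and 4203 normalized counts in LACTB libraries and 458, 515 and 393 in vector libraries, a log2 difference of 3.21 (SE 0.13, limma adjusted p = 2.9e-14). Column totals ran from 34907394 to 35683869 in LACTB libraries and from 38049489 to 41384595 in vector libraries, and the read depth behind them is unknown. Of 10 glial and glioma markers, NES (37368 to 41626 normalized counts in LACTB libraries, 26167 to 38019 in vector libraries) and VIM (35281 to 35329, against 23605 to 26854) were abundant. GFAP stayed low at 119 to 126 in LACTB libraries and 72.3 to 75.7 in vector libraries, and the astrocyte channel gene AQP4 did not exceed 3.11 in LACTB libraries or 8.38 in vector libraries. Of the 8 glial markers tested 4 rose and 3 fell (limma): SOX2, SOX9, VIM and GFAP rose, and S100B (14499 ± 2186 in LACTB libraries, 33778 ± 5580 in vector libraries, SD, n = 3 each, log2 difference -1.22), FABP7 (-0.60) and OLIG2 (-0.56) fell. The summed level of 9 measured fibroblast and pericyte markers was 2288 to 2554 in LACTB libraries and 1523 to 2008 in vector libraries, a gap carried by LUM (983 to 1167, against 230 to 429). Without LUM the sums overlapped, at 1305 to 1389 in LACTB libraries and 1292 to 1579 in vector libraries. DCN passed as lower (log2 difference -0.72, limma adjusted p = 0.021), though its groups overlapped. Of members too low to be tested, THY1 was higher (21.3 to 32.4 in LACTB libraries, 0.0263 to 3.16 in vector libraries). RGS5, also untested, was lower (10.7 to 20.3, against 21.5 to 52.8). The sum of 7 endothelial markers was 211 to 222 in LACTB libraries and 285 to 333 in vector libraries, a gap carried by KDR (1.55 to 11.5, against 57.6 to 79.8). Without KDR these sums also overlapped, at 209 to 216 and 205 to 275. LUM, DCN, THY1, RGS5 and KDR were singled out after their values were seen. The sum of 8 leukocyte markers, nearly all of it CD68, was 1620 to 1733 in LACTB libraries and 1070 to 1198 in vector libraries. The leukocyte antigen gene PTPRC stood at most at 5.44 in LACTB libraries and 14.6 in vector libraries. The part of these marker levels in the collagen results was not tested. In bulk RNA, fewer cells expressing a gene and less of its RNA per cell cannot be told apart.

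Upstream sequence is shown for the collagen genes that changed at least 2-fold and have a single entry in the RefSeq promoter table (GRCh38.p14), because these are the members that moved most. There were 6 genes with such a change and 4 with an entry. COL1A2 and COL8A1 have no entry. Each sequence is the 250 bases before the transcription start, read 5′ to 3′ on the gene's own strand. The last sequence is the 126 bases between the RefSeq starts of COL4A1 and COL4A2, which are transcribed away from each other, read on the plus strand. The GENCODE gene spans given below differ from these starts: that of COL4A2 begins before the interval, and that of COL4A1 ends inside it. Capitals mark matches on either strand to 4 motifs, and overlapping GC boxes were each counted. The TATA box was searched as TATAAA, where the general transcription machinery binds. The second motif is the CCAAT box, written as named. Sp1 family factors bind the GC box, searched as GGGCGG. The AP-1 element, bound by Fos and Jun, was searched as TGANTCA.
COL7A1, chr3:48595330-48595579, minus strand: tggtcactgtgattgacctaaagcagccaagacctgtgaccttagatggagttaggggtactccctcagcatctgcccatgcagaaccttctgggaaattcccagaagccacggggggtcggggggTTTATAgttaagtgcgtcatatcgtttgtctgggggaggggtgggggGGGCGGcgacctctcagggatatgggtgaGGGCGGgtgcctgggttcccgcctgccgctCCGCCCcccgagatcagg
COL12A1, chr6:75206054-75206303, minus strand: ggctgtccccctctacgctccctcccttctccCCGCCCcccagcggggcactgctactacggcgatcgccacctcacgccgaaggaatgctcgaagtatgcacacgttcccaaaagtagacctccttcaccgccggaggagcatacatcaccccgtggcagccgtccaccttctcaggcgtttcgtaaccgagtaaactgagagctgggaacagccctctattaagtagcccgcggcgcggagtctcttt
COL8A2, chr1:36125223-36125472, minus strand: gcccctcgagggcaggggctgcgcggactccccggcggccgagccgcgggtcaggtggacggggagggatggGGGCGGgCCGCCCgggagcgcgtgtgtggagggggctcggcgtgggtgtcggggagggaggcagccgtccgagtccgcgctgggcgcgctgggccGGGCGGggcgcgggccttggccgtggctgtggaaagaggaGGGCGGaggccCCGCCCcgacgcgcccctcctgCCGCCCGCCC
COL5A3, chr19:10010505-10010754, minus strand: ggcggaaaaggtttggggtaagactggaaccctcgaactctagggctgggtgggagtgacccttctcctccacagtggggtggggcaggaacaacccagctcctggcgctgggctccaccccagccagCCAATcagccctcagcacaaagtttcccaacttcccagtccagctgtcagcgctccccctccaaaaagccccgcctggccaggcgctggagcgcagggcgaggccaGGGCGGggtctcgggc
COL4A1 to COL4A2 interval, chr13:110307158-110307283, plus strand: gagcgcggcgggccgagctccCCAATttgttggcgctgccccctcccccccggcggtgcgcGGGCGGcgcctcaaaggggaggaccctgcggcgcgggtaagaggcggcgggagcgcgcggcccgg
COL7A1, which was higher with LACTB, held 1 TATA box and 3 GC boxes, and COL12A1, also higher, held 1 GC box. Among the genes that were lower, COL8A2 held 7 GC boxes, and COL5A3 held 1 CCAAT box and 1 GC box. The interval between COL4A1 and COL4A2 held 1 CCAAT box and 1 GC box. Of 35116 promoters, 10.7% held a TATA box in the same 250 bases, 32% a CCAAT box, 42.6% a GC box and 6.57% an AP-1 element. In the 126 bases next to the start the shares were 5.87%, 21.1%, 34.6% and 3.5%. Of 24 collagen genes with a single entry, 5 had a TATA box, 7 a CCAAT box, 15 a GC box and 0 an AP-1 element. These matches describe letters in the sequence and say nothing of what binds there.

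Collagen genes went both ways with LACTB. Of the 43 rows, 30 had a mean of at least 37.7 normalized counts, which is 1 CPM (counts per 10 to the power 6) of the mean column total, and were tested. Of these 30, 6 were higher with LACTB, 8 were lower and 16 did not pass (limma, Benjamini-Hochberg adjusted p under 0.05 over all 12939 genes tested). Across all tested genes 51.9% passed, 27.4% as higher and 24.6% as lower, so the 46.7% of collagens that passed is close to the background and is no result about collagens as a set. The median log2 difference of the tested collagens was -0.03, beside 0.05 for all tested genes, with a range from -2.62 to 1.46. At a change of at least 2-fold, 3 collagens were higher and 3 lower, where 6.34% of all tested genes were higher and 4.48% lower. The values of the 2 groups did not overlap for 14 of the 30, beside 59.7% of all tested genes.

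**Figure D1:**
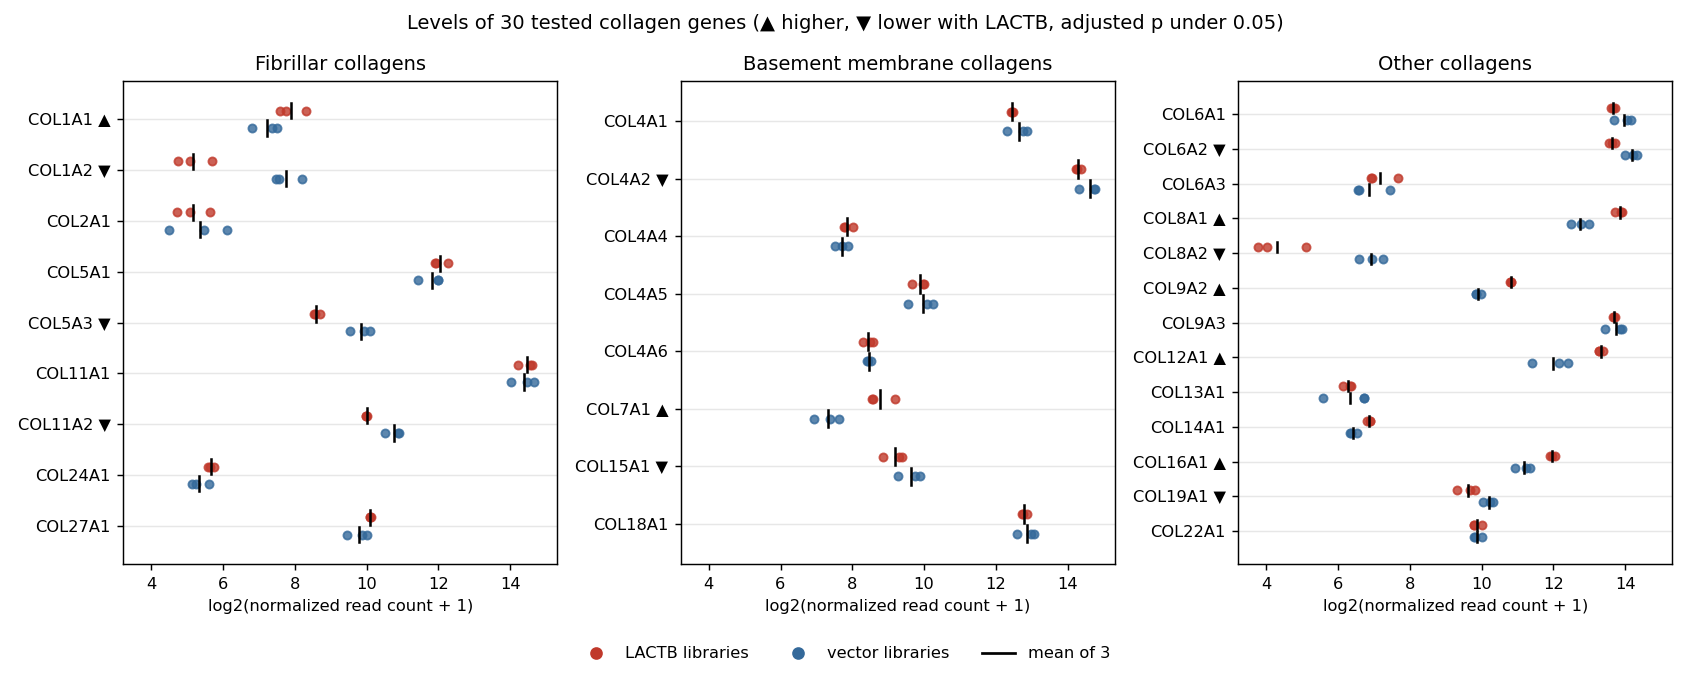
Levels of the 30 tested collagen genes on a log2 scale, with a point for each LACTB (red) and vector (blue) library, a bar for the mean, and a panel for each class. COL1A2, COL8A2 and COL5A3 sit far lower in LACTB libraries, COL7A1, COL8A1 and COL12A1 far higher, and most type IV and XVIII points overlap.

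Together the collagens took 0.379%, 0.399% and 0.389% of the LACTB columns and 0.268%, 0.397% and 0.36% of the vector columns. The groups overlapped, and the low value is that of vector library 1 (0.389% ± 0.0102 in LACTB libraries, 0.342% ± 0.0662 in vector libraries, SD, n = 3 each, two-sided exact permutation p = 0.3, adjusted over 4 shares 0.6). An exact permutation test of 3 libraries against 3 cannot go below 0.1. Fibrillar chains took 0.0849% ± 0.00767 and 0.0736% ± 0.018 (exact p = 0.5), basement membrane chains 0.0998% ± 0.00258 and 0.104% ± 0.0204 (exact p = 0.7), and the others 0.204% ± 0.00466 and 0.164% ± 0.0282 (exact p = 0.1, adjusted 0.4), LACTB first in each. The class of other collagens was the one whose shares did not overlap, from 0.2% to 0.209% in LACTB libraries and from 0.132% to 0.186% in vector libraries. As deposited, without division by the column totals, which were lower in LACTB libraries, the sums of this class overlapped, at 71329, 73005 and 71245 in LACTB libraries and 54468, 70635 and 71883 in vector libraries (exact permutation p = 0.3, computed after seeing the data). Vector library 1 was the lowest of the vector libraries for 26 of the 30 tested collagens (86.7%), beside 36.8% of all tested genes.

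**Figure D2:**
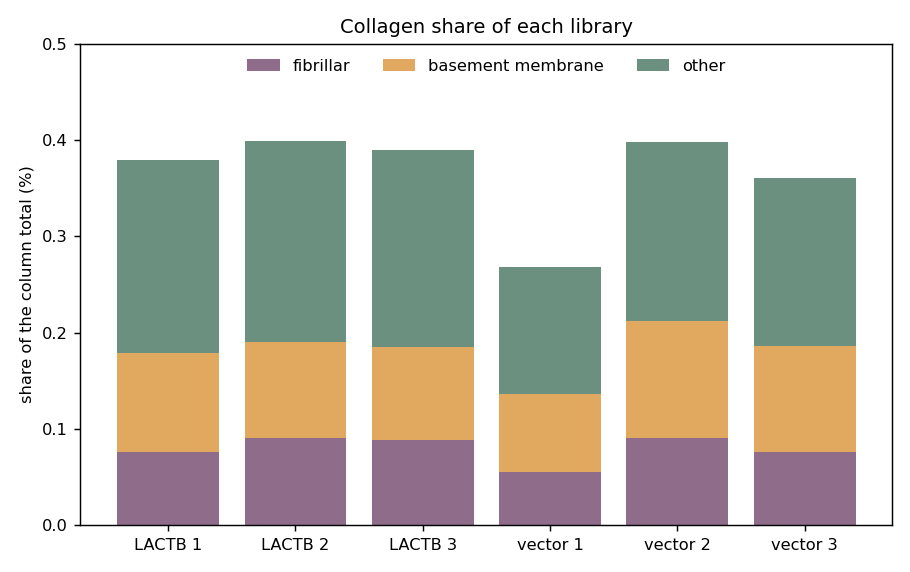
Share of each column total taken by fibrillar, basement membrane and other collagens, stacked, in the 3 LACTB and 3 vector libraries. Vector library 1 has the smallest share at 0.268%, while vector library 2 reaches 0.397%, within the LACTB range of 0.379% to 0.399%.

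Among the fibrillar collagens, 9 of 11 were tested, 1 rose and 3 fell. COL1A2 and COL1A1 encode the 2 chains of type I collagen, the main fibril former of bone, skin and tendon, and they moved apart. COL1A2 (chromosome 7, 94394561 to 94431232) had 50.9, 32.6 and 25.6 normalized counts in LACTB libraries and 176, 189 and 295 in vector libraries. Every LACTB library was lower than any vector library, by a log2 difference of -2.58 (SE 0.29, limma adjusted p = 2.3e-07), and the mean fell to 0.165 of the vector mean. With a pseudocount of 1 CPM the log2 difference was -1.78. COL1A1 (chromosome 17, 50183289 to 50201632) had 319, 213 and 193 in LACTB libraries and 112, 180 and 165 in vector libraries. The groups did not overlap, the LACTB values were higher, with a log2 difference of 0.66 (SE 0.23, limma adjusted p = 0.020). The COL1A1 call was lost without LACTB library 1 (0.44, adjusted p = 0.17), the library with its highest value, without vector library 1 (0.45, adjusted p = 0.090) and with quantile normalization (adjusted p = 0.094).

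Type V and type XI chains control fibril diameter, and both are minor partners of the major fibrils. COL5A3 (chromosome 19, 9959561 to 10010471), the third chain of type V, had 367, 380 and 413 in LACTB libraries and 741, 963 and 1094 in vector libraries. The highest LACTB value lay well below the lowest vector value, with a log2 difference of -1.25 (SE 0.16, limma adjusted p = 1.3e-06). COL5A1, the chain found in nearly all type V molecules, had 4970, 3904 and 3801 in LACTB libraries and 2784, 4096 and 4098 in vector libraries. These overlapped (log2 difference 0.22, 95% interval -0.08 to 0.51, limma adjusted p = 0.20), and passed under equal column totals (0.41, adjusted p = 0.034) and quantile normalization (0.34, adjusted p = 0.047). COL5A2 was below the limit for testing, at 25.6 to 39.3 in LACTB libraries and 27.8 to 35.5 in vector libraries.

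COL11A2 (chromosome 6, 33162681 to 33192499) fell, with 1039, 1014 and 1019 in LACTB libraries and 1447, 1883 and 1901 in vector libraries. The LACTB values were tightly grouped below all vector values (log2 difference -0.76, SE 0.13, limma adjusted p = 5.3e-05). COL11A1 (chromosome 1, 102876467 to 103108872), which encodes the alpha1 chain of the same molecule, was among the most abundant collagen transcripts, with 19164, 24864 and 24073 in LACTB libraries and 16498, 26009 and 22484 in vector libraries. Its groups overlapped, and the log2 difference was 0.08 (95% interval -0.22 to 0.38, limma adjusted p = 0.65). It passed with quantile normalization (0.39, adjusted p = 0.040). COL27A1, a fibrillar chain of cartilage and other tissues, had 1083, 1117 and 1083 in LACTB libraries against 694, 1026 and 943 in vector libraries. It did not pass (0.32, limma adjusted p = 0.066), although it did under equal column totals (0.51, adjusted p = 0.014), after length and GC content were removed (0.34, adjusted p = 0.020), without vector library 2 (0.43, adjusted p = 0.027) and in the fit with replicate blocks (0.32, adjusted p = 0.05, just under the threshold). COL2A1, the cartilage collagen, stood at 25.5 to 49.1 and 21.7 to 67.6 (-0.21, limma adjusted p = 0.67), and COL24A1 at 46.7 to 53.1 and 34.2 to 47.5 (0.32, limma adjusted p = 0.40), in LACTB and vector libraries in that order. COL3A1, the partner of type I in soft tissue, was below the limit for testing, with 38.5, 8.21 and 4.46 in LACTB libraries and 71.0, 27.2 and 39.4 in vector libraries.

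In the basement membrane class, 8 of 9 rows were tested, 1 rose and 2 fell. COL4A1 and COL4A2 encode the chains of the ubiquitous type IV collagen, and their RefSeq starts flank the interval shown above. COL4A2 (chromosome 13, 110305812 to 110513209) had 21094, 19565 and 19106 in LACTB libraries and 20480, 27404 and 27872 in vector libraries. Vector library 1 lay inside the LACTB range, and the log2 difference of -0.33 passed narrowly (SE 0.13, limma adjusted p = 0.032). It was lost under 7 of 16 alternatives, among them equal column totals (-0.14, adjusted p = 0.36), quantile normalization (-0.05, adjusted p = 0.77) and leaving out LACTB library 2, LACTB library 3, vector library 2 or vector library 3. COL4A1 (chromosome 13, 110148963 to 110307233) had 5663, 5603 and 5488 in LACTB libraries and 5059, 7443 and 6960 in vector libraries. It did not pass (-0.20, 95% interval -0.46 to 0.07, limma adjusted p = 0.20), and did as lower without vector library 1 (-0.37, adjusted p = 0.0019), under median centring (-0.33, adjusted p = 0.043) and after removal of length and GC (-0.22, adjusted p = 0.046). The 2 genes overlap in the annotation on opposite strands, and a strand setting for the counting is not given in the sources used here, so reads over the overlap cannot be assigned to one of them.

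COL7A1 (chromosome 3, 48564073 to 48595267) encodes type VII collagen, which forms the anchoring fibrils that tie the basement membrane to the tissue beneath it. It had 587, 377 and 384 in LACTB libraries and 122, 167 and 198 in vector libraries. All LACTB values were higher, on average 2.77-fold, and the log2 difference of 1.46 was the largest rise among the tested collagens (SE 0.21, limma adjusted p = 7.6e-06). COL15A1, which encodes a multiplexin of the basement membrane zone, had 466, 664 and 627 in LACTB libraries and 618, 947 and 853 in vector libraries. These overlapped, and the log2 difference of -0.45 (SE 0.17, limma adjusted p = 0.029) was lost under 6 of 16 alternatives, including equal column totals (adjusted p = 0.26), the removal of length and GC (0.063), and leaving out LACTB library 1 (0.19), vector library 2 (0.17) or vector library 3 (0.14).

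COL18A1, whose C-terminal fragment is endostatin, had 7436, 6897 and 6839 in LACTB libraries and 6097, 8129 and 8463 in vector libraries (-0.09, 95% interval -0.34 to 0.17, limma adjusted p = 0.58). Without vector library 1 it passed as lower (-0.23, adjusted p = 0.031). COL18A1 overlaps SLC19A1 on the opposite strand, which had 898 to 1238 in LACTB libraries and 1630 to 2227 in vector libraries (log2 difference -0.91). The remaining type IV chains are those of kidney and other specialised membranes. COL4A5 had 812 to 1018 in LACTB libraries and 755 to 1226 in vector libraries (-0.09, 95% interval -0.42 to 0.24, limma adjusted p = 0.64). COL4A6 had 311 to 378 and 337 to 369 (-0.01, 95% interval -0.36 to 0.33, limma adjusted p = 0.95), and COL4A4 had 217 to 258 and 181 to 233 (0.16, 95% interval -0.23 to 0.56, limma adjusted p = 0.49), LACTB first. COL4A3 stood at 13.7 to 19.0 in LACTB libraries and 11.8 to 16.6 in vector libraries and was not tested.

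Among the other collagens, 13 of 23 rows were tested, 4 rose and 3 fell. The 2 network chains of type VIII, which in the eye build the lattice of Descemet's membrane, moved in opposite directions. COL8A1 (chromosome 3, 99638475 to 99799226) had 13443, 15244 and 15507 in LACTB libraries and 5791, 8072 and 6938 in vector libraries. All LACTB values were higher, 2.12-fold on average, with a log2 difference of 1.10 (SE 0.12, limma adjusted p = 2.9e-07). COL8A2 (chromosome 1, 36095236 to 36125220) had 12.7, 15.3 and 33.6 in LACTB libraries and 94.1, 123 and 152 in vector libraries. All LACTB values were lower, and the log2 difference of -2.62 was the largest fall among the tested collagens (SE 0.35, limma adjusted p = 2.8e-06). On the log2 scale with a pseudocount of 1 CPM it was -1.47, since COL8A2 is a low gene.

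FACIT collagens attach to the surface of fibrils, and of 7 tested 3 rose and 1 fell. COL12A1 (chromosome 6, 75084326 to 75206051), which encodes a long fibril-bound chain of dense connective tissue, had 9905, 10758 and 9914 in LACTB libraries and 2691, 5394 and 4571 in vector libraries. The values did not overlap, the LACTB mean was 2.42-fold higher, for a log2 difference of 1.33 (SE 0.18, limma adjusted p = 2.6e-05). Without vector library 1, its lowest library, the difference was 1.04, and after removal of length and GC it was 0.88 (adjusted p = 0.00081). COL16A1 had 4183, 4020 and 3834 in LACTB libraries and 1959, 2622 and 2391 in vector libraries, again without overlap (0.80, SE 0.12, limma adjusted p = 1.2e-05).

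COL9A2, a chain of the type IX collagen that decorates cartilage fibrils, had 1801, 1781 and 1819 in LACTB libraries and 914, 915 and 1011 in vector libraries. The replicates lay close together in both groups and far apart between them (0.93, SE 0.12, limma adjusted p = 1.7e-06). COL9A3 had 13028, 13251 and 13580 in LACTB libraries and 11155, 14846 and 15378 in vector libraries, where the vector values enclose the LACTB values (-0.04, 95% interval -0.30 to 0.22, limma adjusted p = 0.81). With length and GC removed COL9A3 passed as higher (0.49, adjusted p = 0.0015). It overlaps TCFL5 on the opposite strand, which had 1163 to 1238 in LACTB libraries and 1800 to 2149 in vector libraries.

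COL19A1, a FACIT chain known from muscle and brain, had 640, 903 and 821 in LACTB libraries and 1273, 1205 and 1056 in vector libraries. Every LACTB value was lower than any vector value (-0.59, SE 0.14, limma adjusted p = 0.0017), and lies over LMBRD1 on the opposite strand, which did not pass (0.06, limma adjusted p = 0.70). With length and GC removed the COL19A1 difference was -0.91. COL14A1 had 110 to 117 in LACTB libraries and 80.0 to 91.0 in vector libraries. These did not overlap, but the difference did not pass (0.45, limma adjusted p = 0.11) except under equal column totals (0.64, adjusted p = 0.028) and under limma without trend and robust settings (adjusted p = 0.013). COL22A1 had 891, 1038 and 876 in LACTB libraries and 897, 1035 and 876 in vector libraries, a difference of -0.00 with a 95% interval of -0.28 to 0.27 (limma adjusted p = 0.99).

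Type VI collagen makes the beaded filaments around cells, and its chain genes COL6A1 and COL6A2 lie side by side on chromosome 21. COL6A2 (46098097 to 46132849) had 13396, 12632 and 11990 in LACTB libraries and 16318, 19197 and 20638 in vector libraries, with no overlap (-0.56, SE 0.12, limma adjusted p = 0.00046), and -0.35 under quantile normalization and -0.37 under equal column totals. COL6A1 (45981737 to 46005050) had 13567, 13000 and 12509 in LACTB libraries and 13094, 16891 and 18475 in vector libraries, where vector library 1 lay among the LACTB values (-0.30, SE 0.13, limma adjusted p = 0.051). COL6A1 passed as lower without vector library 1 (-0.44, adjusted p = 6.0e-04), with median centring (-0.43, adjusted p = 0.011), with no filter (adjusted p = 0.041), in the fit with replicate blocks (adjusted p = 0.034) and with a pseudocount of 1 CPM (adjusted p = 0.05, just under the threshold). The 50 tested genes nearest to COL6A2 had a median log2 difference of -0.33, those nearest to COL6A1 of -0.39 and those nearest to COL18A1 of -0.39. COL18A1 starts at 45405137 on the same chromosome, so the windows share genes and these medians are not separate observations. With length and GC removed these medians were all -0.31, COL6A2 stood at -0.15 and did not pass (adjusted p = 0.11), and COL6A1 stood at -0.01 (adjusted p = 0.89). Neighbour medians of this size as deposited were not particular to chromosome 21. They were 0.52 near COL8A1, 0.48 near COL24A1, 0.42 near COL19A1, 0.40 near COL1A2, 0.36 near COL12A1, -0.37 near COL9A3 and -0.41 near COL5A1. With length and GC removed these were 0.20, 0.23, 0.11, 0.34, 0.07, -0.08 and -0.08, in that order. COL6A3, whose gene is on chromosome 2, had 201, 120 and 123 in LACTB libraries and 95.1, 93.8 and 174 in vector libraries (0.31, 95% interval -0.24 to 0.86, limma adjusted p = 0.34). COL13A1, the single transmembrane collagen tested, had 68.9 to 80.5 in LACTB libraries and 47.3 to 105 in vector libraries (-0.08, 95% interval -0.70 to 0.54, limma adjusted p = 0.84).

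**Figure D3:**
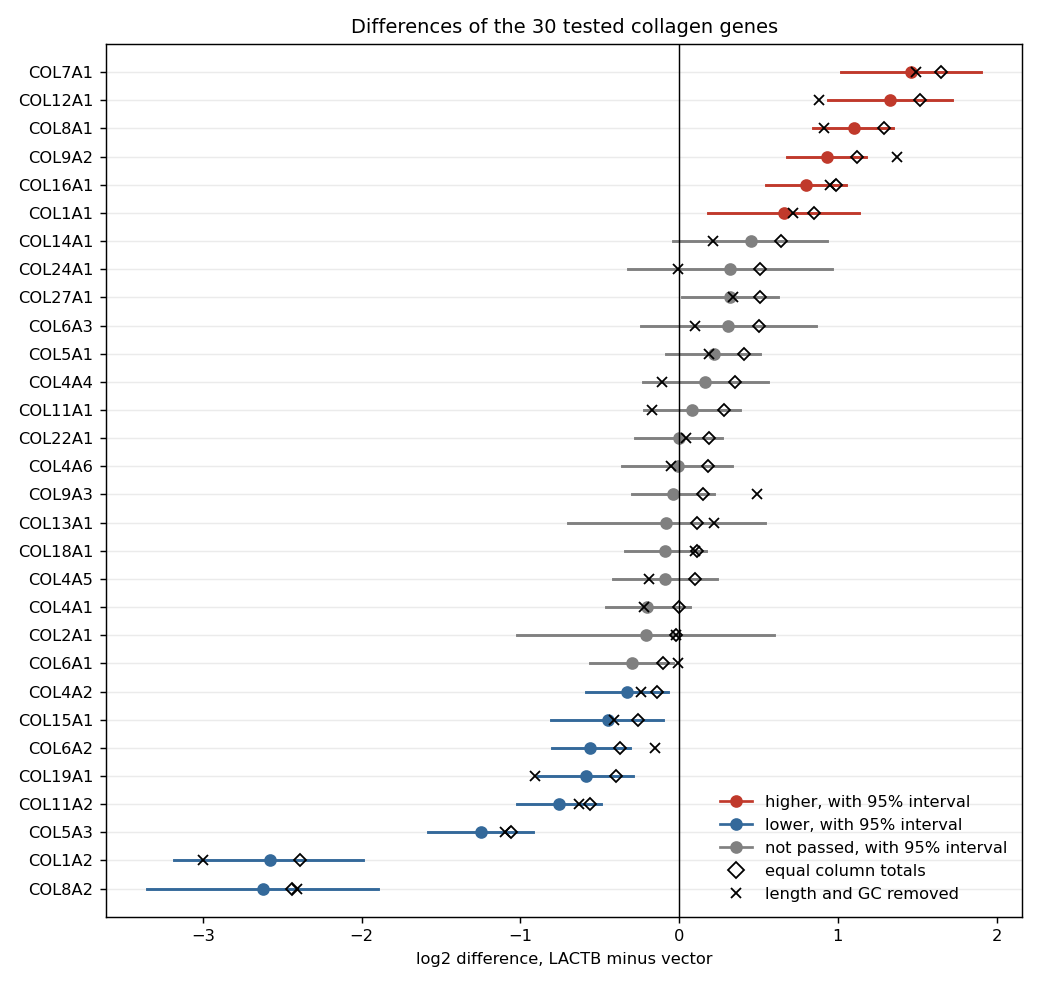
Log2 difference of each tested collagen, LACTB minus vector, with its 95% interval (limma), coloured red for higher, blue for lower and grey for not passed, beside the value with equal column totals (diamond) and with transcript length and GC removed (cross). COL7A1, COL12A1, COL8A1, COL9A2 and COL16A1 lie above 0 and COL8A2, COL1A2, COL5A3, COL11A2 and COL19A1 below 0 under all 3. The crosses of several genes lie away from their points, among them COL9A3, COL12A1, COL9A2, COL1A2 and COL6A2.

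The 13 collagen rows that were not tested had means of at most 33.6 normalized counts. In 6 of them a library reached 10 normalized counts. Beside COL3A1, COL4A3 and COL5A2, these were COL9A1 (14.5 to 23.5 in LACTB libraries, 8.59 to 16.9 in vector libraries), COL28A1 (21.3 to 29.7, against 11.9 to 29.6) and the hemidesmosome collagen COL17A1 (1.59 to 6.16, against 0.0903 to 10.9). The other 7, COL6A5, COL6A6, COL20A1, COL21A1, COL23A1, COL25A1 and COL26A1, did not exceed 5.47 in any library. Such values are too low for a comparison.

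Per kilobase of the longest annotated transcript, the mean levels in LACTB libraries were highest for COL9A3 (5321 normalized counts per kilobase), COL6A2 (3662), COL11A1 (3098), COL6A1 (3074), COL4A2 (3068) and COL8A1 (2582). In vector libraries the highest were COL9A3 (5524), COL6A2 (5408), COL4A2 (3889), COL6A1 (3812), COL11A1 (2957) and COL8A1 (1215). The type I chains were low on this scale, with COL1A1 at 35.9 in LACTB libraries and 22.6 in vector libraries and COL1A2 at 6.07 and 36.7. COL12A1 stood at 869 in LACTB libraries and 360 in vector libraries. Of the summed normalized counts of all collagens, COL8A1 made up a mean of 10.8% in LACTB libraries and 5.08% in vector libraries, COL12A1 7.45% and 3.02%, COL6A2 9.26% and 13.8%, and COL4A2 14.6% and 18.4%. The tested collagens are long and rich in G and C, with a median transcript of 6446 bases and 59.6% GC, beside 3614 bases and 48.3% GC for 12840 tested genes with an annotated transcript. Each call is given above with length and GC removed where that changed it.

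Chains of a single molecule were compared directly as the log2 ratio of their values within each library, with 1 added to each value. This largely cancels any scaling of the whole library. It does not cancel effects of length and GC content, which were not removed from the ratios. The plain ratios per library are given first. Of 10 pairs listed, 8 had both chains tested. For 5 of the 8 the ratios of the groups did not overlap. Each of these had the smallest p that the exact permutation test can give (two-sided exact p = 0.1, adjusted over the 8 pairs 0.16), so that none can pass a threshold of 0.05. Single genes did not overlap for 59.7% of all tested, and no such share was computed for ratios of other gene pairs. The 5 of 8 is therefore no result about collagen pairs as a set. COL1A1 over COL1A2 was 6.27, 6.52 and 7.54 in LACTB libraries and 0.637, 0.949 and 0.558 in vector libraries. Thus COL1A1 counts exceeded COL1A2 counts in all LACTB libraries and in no vector library, a difference of 3.24 in the log2 ratio.

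COL8A1 over COL8A2 was 1060, 996 and 461 in LACTB libraries and 61.6, 65.4 and 45.7 in vector libraries, a log2 difference of 3.72. COL9A2 over COL9A3 was 0.138, 0.134 and 0.134 in LACTB libraries and 0.082, 0.0616 and 0.0657 in vector libraries (log2 difference 0.97). COL11A1 over COL11A2 was 18.4, 24.5 and 23.6 in LACTB libraries and 11.4, 13.8 and 11.8 in vector libraries (log2 difference 0.84). In the type IX and type XI pairs 1 chain passed the test, COL9A2 as higher and COL11A2 as lower, and the levels of the other overlapped between groups. With length and GC removed, COL11A1 stood at -0.17 and COL11A2 at -0.63, and COL9A2 at 1.37 and COL9A3 at 0.49. In the same setting COL1A1 stood at 0.72 and COL1A2 at -3.00, COL8A1 at 0.91 and COL8A2 at -2.41, and COL6A1 at -0.01 and COL6A2 at -0.15.

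COL6A1 over COL6A2 was 1.01, 1.03 and 1.04 in LACTB libraries and 0.802, 0.88 and 0.895 in vector libraries, a small difference of 0.26 without overlap. COL4A1 over COL4A2, the pair with the shared interval, was 0.268, 0.286 and 0.287 in LACTB libraries and 0.247, 0.272 and 0.25 in vector libraries. These overlapped (log2 difference 0.13, exact p = 0.2). COL4A5 over COL4A6, also a pair that starts back to back, was 2.61, 2.78 and 2.69 in LACTB libraries and 2.24, 3.53 and 2.92 in vector libraries (-0.08, exact p = 0.7). COL6A1 over COL6A3 was 67.6, 108 and 102 in LACTB libraries and 138, 180 and 106 in vector libraries (-0.61, exact p = 0.2). With 3 libraries a group, an overlap of this kind does not show that the ratios are equal.

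**Figure D4:**
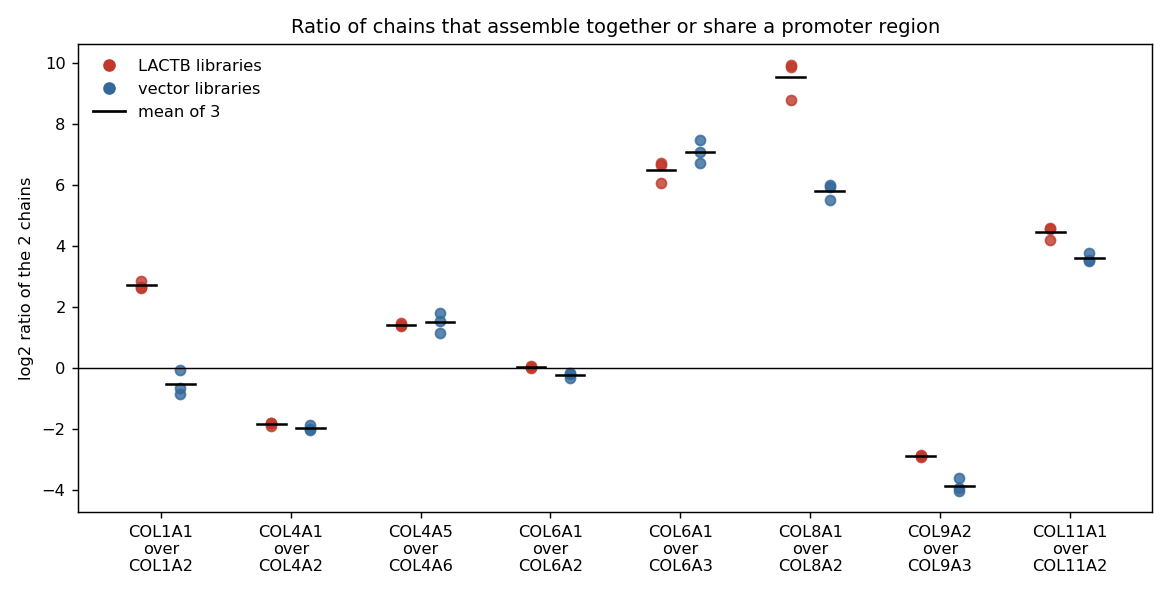
Log2 ratio of the 2 chains of each pair in each LACTB (red) and vector (blue) library, with a bar for the mean of 3. COL1A1 over COL1A2 and COL8A1 over COL8A2 are separated by 3.24 and 3.72 on the log2 scale, and COL4A1 over COL4A2 by 0.13 with overlap.

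Genes that act on collagen after it is made were read from lists of 74 genes, of which 70 were measured and 55 tested. Of the 55, 18 were higher with LACTB and 18 lower (65.5% passed, beside 51.9% of all tested genes), with a median of 0.02. The same 51.9% stands beside the counts of each list below, and no list was tested as a set. Under equal column totals 23 were higher and 11 lower. Procollagen chains are hydroxylated on proline and lysine and glycosylated in the endoplasmic reticulum. Of 15 genes for these steps 2 rose and 4 fell. P4HA2, a catalytic subunit of the prolyl 4-hydroxylase, had 4249, 4118 and 4061 in LACTB libraries and 7809, 7195 and 7508 in vector libraries, lower in each (-0.86, SE 0.11, limma adjusted p = 1.1e-06). P3H2, a prolyl 3-hydroxylase with a preference for type IV collagen, averaged 1753 ± 97.8 in LACTB libraries and 3081 ± 523 in vector libraries (SD, n = 3 each, log2 difference -0.80, limma adjusted p = 2.3e-05). PLOD2, the lysyl hydroxylase of the telopeptides that sets the type of cross-link, had 3056, 3503 and 3031 in LACTB libraries and 1425, 1733 and 1147 in vector libraries, higher in each (1.17, SE 0.13, limma adjusted p = 3.6e-07).

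In the list of folding and export genes, 14 were tested, 8 rose and 3 fell (median 0.42). All 3 that fell assist folding in the endoplasmic reticulum. SERPINH1, the collagen-specific chaperone HSP47, had 20664, 21255 and 21162 in LACTB libraries and 40917, 43089 and 49814 in vector libraries, with a log2 difference of -1.08 (SE 0.12, limma adjusted p = 1.3e-07) and of -0.70 under quantile normalization. FKBP10, a prolyl isomerase that works with it, had 8688, 9079 and 8999 in LACTB libraries and 17420, 17710 and 19260 in vector libraries (-1.02, SE 0.11, limma adjusted p = 1.3e-07). PPIB, the isomerase cyclophilin B, named after its values were seen, averaged 18111 ± 337 in LACTB libraries and 32758 ± 6150 in vector libraries (SD, n = 3 each, -0.84, limma adjusted p = 1.6e-05).

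The 8 folding and export genes that rose include CREB3L2, a transcription factor of secretory pathway genes, with 5804, 5638 and 5786 in LACTB libraries and 1689, 2848 and 2487 in vector libraries (1.33, SE 0.14, limma adjusted p = 1.7e-07). The other 7 were named after their values were seen. They were the COPII coat genes SEC23A (0.93), SEC24D (0.92) and SEC31A (0.79), the cargo receptor genes MIA3 (0.78) and MIA2 (0.63), which load procollagen into COPII carriers, the ubiquitin ligase adaptor KLHL12 (0.37), which enlarges the coat in cultured cells, and the isomerase gene FKBP14 (0.46), each a log2 difference. Their limma adjusted p ran from 4.4e-06 for SEC23A to 0.018 for KLHL12.

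After secretion, propeptides are cut off and chains are cross-linked. PCOLCE, an enhancer of the C-propeptidase, averaged 11878 ± 480 in LACTB libraries and 7560 ± 933 in vector libraries (SD, n = 3 each, 0.66, limma adjusted p = 6.9e-05). Removing length and GC gave 1.16. Its paralog PCOLCE2 had 270, 261 and 256 in LACTB libraries and 718, 628 and 700 in vector libraries, lower in each (-1.37, SE 0.16, limma adjusted p = 2.9e-07). ADAMTS3, an N-propeptidase, passed at 140 ± 15.5 in LACTB libraries and 93.3 ± 8.75 in vector libraries (SD, n = 3 each, 0.58, limma adjusted p = 0.038). Its call was lost under 9 of the 15 alternatives that give it a value, among them the removal of length and GC (0.18, adjusted p = 0.45). Of the 5 propeptide genes tested 2 rose and 1 fell, and all 4 cross-linking genes tested passed, 1 higher and 3 lower. The lysyl oxidase-like gene LOXL2 averaged 20641 ± 1279 in LACTB libraries and 14029 ± 930 in vector libraries (SD, n = 3 each, 0.56, limma adjusted p = 0.00030). LOXL3 went the other way with 11794 ± 768 in LACTB libraries and 17223 ± 1217 in vector libraries (SD, n = 3 each, -0.55, limma adjusted p = 0.00037), with differences of -0.31 to -0.35 under quantile normalization, equal column totals and removal of length and GC. The transglutaminase TGM2 had 2371, 2089 and 1934 in LACTB libraries and 4829, 5386 and 5609 in vector libraries (-1.31, SE 0.12, limma adjusted p = 8.7e-09).

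Cells bind collagen through integrins of the beta1 family and the DDR kinases. Of 9 receptor and uptake genes tested, 3 rose and 2 fell. ITGA11, an integrin chain that binds type I collagen, had 398, 414 and 436 in LACTB libraries and 1022, 1142 and 1297 in vector libraries (-1.46, SE 0.14, limma adjusted p = 3.4e-08). Other alpha chains of the list, named after their values were seen, did not pass. They were ITGA1 (0.22, limma adjusted p = 0.31), ITGA2 (0.02, limma adjusted p = 0.93) and ITGA10 (0.44, limma adjusted p = 0.069). ITGB1, the partner of ITGA11 and of the other collagen integrins, had 15155, 16613 and 16504 in LACTB libraries and 11574, 9224 and 7253 in vector libraries (0.81, SE 0.14, limma adjusted p = 4.7e-05). DDR2, a receptor tyrosine kinase activated by fibrillar collagen, had 2832, 3114 and 2599 in LACTB libraries and 1545, 1602 and 1383 in vector libraries (0.91, SE 0.12, limma adjusted p = 1.7e-06). With length and GC removed the DDR2 difference was 0.31 and the ITGB1 difference 0.53.

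Of 8 collagen degradation genes tested 2 rose and 5 fell. MMP16, a membrane-bound metalloprotease, averaged 2250 ± 422 in LACTB libraries and 1117 ± 72.1 in vector libraries (SD, n = 3 each, 0.99, limma adjusted p = 3.0e-06), and its difference was 0.31 with length and GC removed. The lysosomal cathepsin genes CTSL (-0.67, limma adjusted p = 8.6e-05) and CTSB (-0.54, limma adjusted p = 0.00034) fell. CTSB lost its call with quantile normalization (-0.16, adjusted p = 0.12) and stood at -0.35 under equal column totals, and CTSL at -0.37 with length and GC removed.

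**Figure D5:**
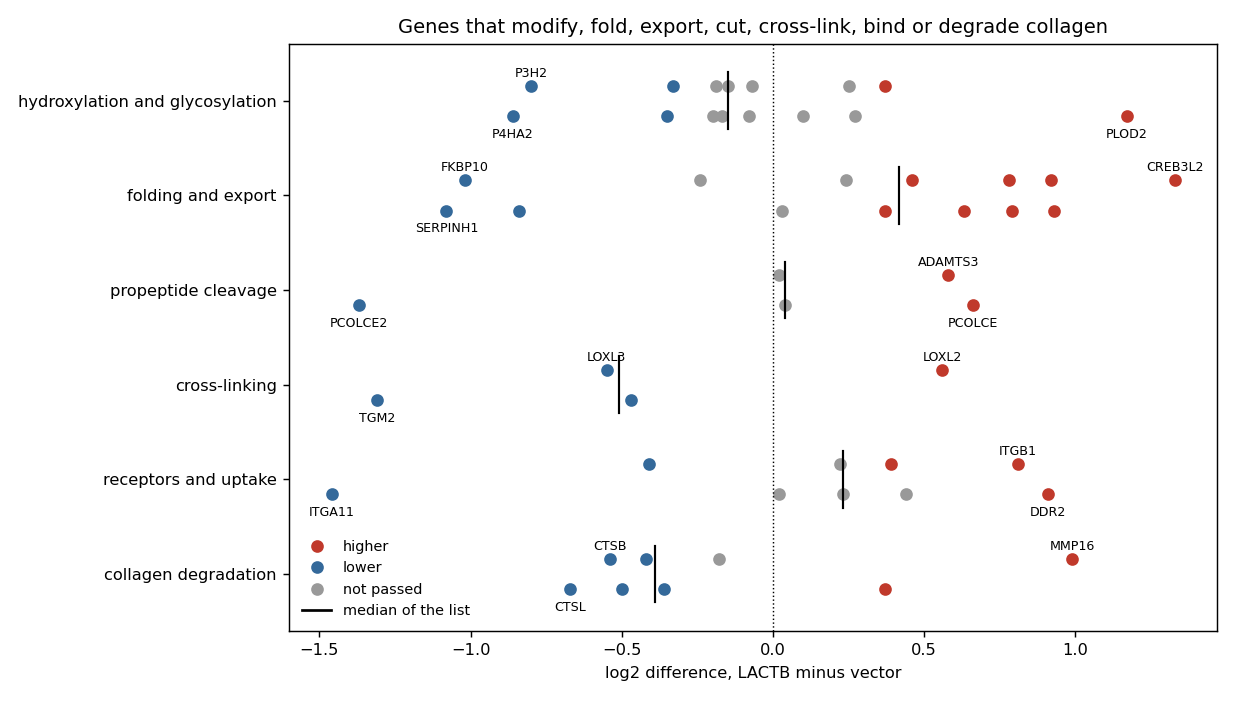
Log2 difference, LACTB minus vector, of the 55 tested genes that modify, fold, export, cut, cross-link, bind or degrade collagen, a row for each list, red for higher, blue for lower, grey for not passed and a bar for the list median. In the folding and export row SERPINH1 and FKBP10 lie near -1 and CREB3L2 at 1.33, and the list median is 0.42.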

How the data were processed

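Total RNA of LN229 cells was sequenced in 3 LACTB and 3 vector libraries. Reads were aligned with HISAT2 to hg38, per the submitters' processing notes. How reads were counted (tool, annotation, strandedness) and normalized is not given in the sources used here. Deposited values are non-negative decimals per gene, treated as a normalized count signal made by the authors. With values under 1e-10 taken as 0, each vector library had 22538 rows above 0, and the LACTB libraries had 20809, 20500 and 23061. Some low values were small fractions where another library of the group had more, as for COL20A1 (2.09, 0.0182 and 0.0107 in vector libraries). Whether libraries of a group were processed jointly is unknown and was not tested. The limma p-values treat them as independent, and would be too small if processing shared values within a group. Read depth could not be recovered from the values. The best single step left 31.62% to 54.48% of low values whole within 0.05. By chance 10% would be whole for a fixed step, and the level for the best of many steps was not computed. Many low values were not whole even at the best step. Reads were therefore not recovered, no count model was run, and the branch of the design for normalized values was used.

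Values under 1e-10 were set to 0. Of 24489 rows, 9 symbols stood on more than 1 row and the row with the higher mean was kept. The low-value filter kept 12939 genes averaging 37.7 normalized counts or more, or 1 CPM of the mean column total. Values were tested as log2(value + 1) by limma 3.58.1 under R 4.3.3 (all 6 libraries, with a mean trend and robust shrinkage) and Benjamini-Hochberg adjustment over all tested genes. Fold changes of low genes are understated on this scale. Summed shares and chain ratios had two-sided exact permutation tests, run in Python 3.11.15. Figures were drawn with matplotlib 3.10.9. Length and GC content are those of the longest transcript in GENCODE 29 (GRCh38), present for 99.2% of tested genes, and 95% of symbols matched a single gene. Coordinates are from the same annotation, and promoters from RefSeq (GRCh38.p14).

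The collagens were picked for description, and the gene lists drawn up, with earlier results of these data known, while membership follows from the symbol alone. All collagens tested are named, untested ones where a library reached 10, and in each list of collagen-processing genes the 3 passing genes with the smallest adjusted p. Alternatives were other scalings (median centring, quantile normalization, equal column totals), filters, pseudocounts and limma settings, a replicate block, removal of length and GC, a 2-fold minimum and leaving out each library.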

Additional observations from a re-analysis of the deposited data

How the results depend on the processing

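Of the 14 collagens that passed, 10 kept their call and direction under every alternative of scaling, filter, pseudocount, limma setting, block, length and GC removal or left-out library that gives them a value (16, or 15 for COL1A2 and COL8A2, which the 5 CPM filter removes): COL7A1, COL8A1, COL9A2, COL12A1 and COL16A1 as higher, and COL1A2, COL5A3, COL8A2, COL11A2 and COL19A1 as lower. COL1A1, COL4A2, COL6A2 and COL15A1 did not, as given beside their values. COL9A3, which had not passed (-0.04), passed as higher after removal of length and GC, with a log2 difference of 0.49 (limma adjusted p = 0.0015). With a 2-fold minimum 820 genes were higher and 580 lower, 3 collagens were higher and 3 lower (COL9A2, COL16A1, COL11A2 and COL19A1 of these 10 did not reach it), and 2 collagen-processing genes were higher and 5 lower. Equal column totals left 1905 genes and 11 collagen-processing genes lower. They moved the median of all genes to 0.24 on the log2 scale and that of the collagens to 0.16, against 0.05 and -0.03 as deposited. The split of higher to lower genes was 3544 to 3177 as deposited, 4984 to 1905 with equal column totals and 2684 to 4148 with median centring. The summed collagen share had a log2 ratio of 0.19, the sum of deposited values -0.00 (exact p = 1), and the mean of log2 values had the other sign, at -0.07 (exact permutation p = 0.6). Leaving out 1 library gave 0.04 (without vector library 1) to 0.31 (without vector library 2) for the share, 5 to 7 collagens higher and 6 to 11 lower, the 11 without vector library 1.

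Deviations from the group means correlated weakly between libraries of the same replicate number (0.0228, 0.182 and 0.00342 over genes). The 0.182 of the libraries numbered 2 was the highest of any LACTB and vector combination. Deviations from means of 3 libraries cannot show whether the numbers pair them. With the replicate number as a block 7 collagens were higher and 9 lower, 3673 genes higher and 3206 lower, and 18 and 18 collagen-processing genes. LACTB library 1 correlated best with vector library 3 (0.161). The unknown depth limits what can be said of collagens under the low-value filter.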
